A study of Mus musculus with 4 samples.

Results

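Replication-dependent histone cluster genes encode the linker histone H1 and the core histones H2A, H2B, H3 and H4 that package DNA into chromatin. They lie together in clusters, mostly without introns, and their transcription rises in S phase, when new DNA has to be packaged. Most of their mRNAs end after a conserved stem-loop in place of a poly(A) tail, while some members also give polyadenylated transcripts, mainly in cells that have left the cell cycle. Cochlear hair cells, the sensory cells of the inner ear, no longer divide after birth.

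The family was taken as every gene whose symbol starts with Hist, a cluster number and h, which gave 68 of the 23420 genes listed. The members were chosen by symbol alone, and no measured value entered that rule. However, the family was taken up after the rise of Hist1h1e in treated hair cells was known, so the values of Hist1h1e in that comparison, and its difference between the populations, are given below as a description with no test. Of the members, 6 encode H1, 18 encode H2A, 19 encode H2B (with the pseudogene Hist3h2bb-ps counted among them), 12 encode H3 and 13 encode H4. The main cluster on chromosome 13 holds 54 of them, chromosome 3 holds 10, chromosome 11 holds 3, and Hist4h4 lies alone on chromosome 6.

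RNA was sequenced from cochleae of Atoh1-GFP mice on a CD1 background, in which the GFP transgene marks hair cells. All organs were taken at postnatal day 1 and cultured overnight at low oxygen, and they then received either 0.5 mM gentamicin, an aminoglycoside antibiotic that kills hair cells, for 3 h or no drug. Strongly GFP-positive cells were sorted as hair cells (HC) and GFP-negative cells as non-hair cells (NHC), with weakly GFP-positive cells gated out of the hair cell fraction. Each of the 4 groups (HC control, HC gentamicin, NHC control and NHC gentamicin) had 3 replicates, and all errors below are SD over these 3 unless an SE is named. Values are the deposited normalized read scores, in which a score of 1 marks a gene without reads and 1 read added 0.0351 to 0.0461, depending on the replicate. Between 22400368 and 28151828 reads fell on genes per replicate.

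The sorted populations were separated by hair cell markers. All 12 hair cell markers examined, among them Atoh1 and Pou4f3, were higher in control hair cells, and their summed score (less the offset of 1) was 12980–13470 against 304–330 in control non-hair cells. The non-hair cells were a mixture, with a summed score of 5944–7469 for 9 mesenchymal markers. The same markers summed to 262–563 in control hair cells and 181–227 in treated hair cells, and 7 Schwann cell and glial markers to 251–327 and 143–197. Supporting cell markers were not low in the hair cell fraction. The 12 examined summed to 2831–3365 in control hair cells and 1775–3504 in control non-hair cells, where 2 were higher in hair cells, 1 was lower and 9 did not meet the criteria used below. In treated hair cells they summed to 1730–2571, under every control, and 2 of the 12 (Hes5 and Lfng) fell. None of these markers was at 0 in any group, and their part in the results below was not tested.

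Because the libraries were made from polyA RNA, the levels below are those of histone transcripts that poly(A) selection retained, and a change in the amount of RNA and a change in the share with a poly(A) tail cannot be told apart. In the GENCODE M21 annotation (GRCm38, the assembly that mm10 names), a stem-loop of 6 paired bases around a loop of 4 bases was found in the transcripts of 43 members. Each example shown carries 7 bases on either side, with the stem-loop in capitals, and they were picked as the abundant or responding members of their classes.
Hist1h1c: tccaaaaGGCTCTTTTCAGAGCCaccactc
Hist1h1d: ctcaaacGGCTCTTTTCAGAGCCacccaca
Hist1h1e: acccaaaGGCTCTTTTCAGAGCCacccaca
Hist2h3c1: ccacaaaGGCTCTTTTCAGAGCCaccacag
Hist1h4i: acttaaaGGCCCTTTTTAGGGCCaccacaa
Hist4h4: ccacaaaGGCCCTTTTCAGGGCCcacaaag

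The stem split by class. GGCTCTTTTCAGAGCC was carried by 25 members, namely 3 H1, 10 H2A, 7 H2B and 5 H3 genes, and by 0 of the 11 H4 genes with a stem-loop. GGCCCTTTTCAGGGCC was carried by 7 H4 genes and no other class. In the members shown, the shortest annotated transcript ran on past the stem-loop. It did so by 840 bases in Hist1h1c, 4884 in Hist1h1d, 1153 in Hist1h1e, 1162 in Hist2h3c1, 330 in Hist1h4i and 2445 in Hist4h4. Over the family, 28 members had such an extended transcript, which means more than 100 bases past the stem-loop or a poly(A) signal (AATAAA or ATTAAA) in the last 50 bases. Those 28 held 77.2% of all reads on the family, and 17 of them had at least 100 reads over the 12 replicates. The 20 members annotated to end near the stem-loop held 12.3% of the reads, and the 20 with neither feature held 10.5%. Single genes gave most of both shares, Hist2h2aa1 with 10483 of 14075 reads and Hist1h2bc with 10316 of 12055. The groups describe annotated transcripts, some of them short (312 bases for Hist1h4k), and not the RNA measured.

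Few reads were behind most members. A minimum of 100 reads over the 12 replicates, the size of the study's own filter on total reads, was met by 29 members (3 H1, 8 H2A, 10 H2B, 3 H3 and 5 H4 genes), while 39 fell under it and Hist1h4f had no reads in any replicate. Just inside the minimum were Hist1h2bj with 110.8 reads and Hist1h2ae with 113.2 reads. Just outside were Hist3h2bb-ps with 92.6, Hist1h2ap with 91.7, Hist1h4k with 90.9 and Hist1h2ai with 90.7 reads. Recovered reads are often not whole numbers, and the handling of reads that match several genes is not given in the sources used here.

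Sequence shared with other annotated genes limits what can be assigned to a single member. A median of 51.9% of the 50-base runs in a member's exons (50 bases being the read length) also occurred in another annotated gene, on either strand. Of the 68 members, 34 shared at least 50% of theirs, and 5 shared all of them. These shares count near-identical copies and genes annotated over the same bases alike. For Hist2h2bb and Hist2h3b, the antisense gene Gm20628 alone held 100% of the runs. Hist1h2bq and Hist1h2br had identical scores in all 12 replicates, so they stand for 1 measurement. Hist2h2aa1 and Hist2h2aa2, Hist1h4m and Hist1h4n, and Hist2h3b, Hist2h3c1 and Hist2h3c2 formed further linked sets. In contrast, Hist1h1c shared 8.5% of its runs, Hist1h1d 2.3% and Hist2h2be 0%. Hist1h1e shared 32.0%, most of them with the overlapping gene Hist1h2be.

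**Figure D1:**
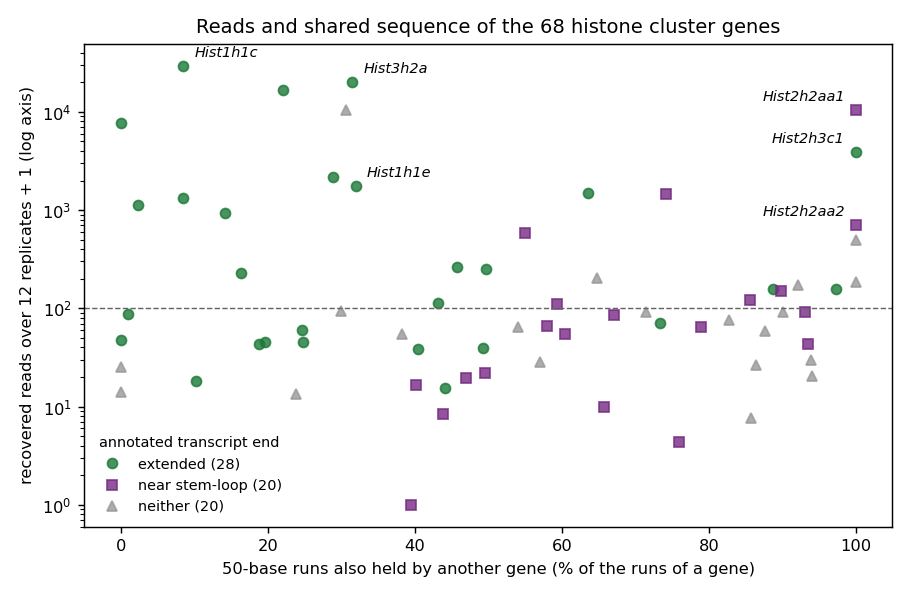
Recovered reads over the 12 replicates plus 1 (vertical log axis) against the percentage of a gene's 50-base runs that another gene also holds (horizontal axis), 1 point per member, with colour and shape for the annotated transcript end and a dashed line at the minimum of 100 reads. Hist1h1c lies high on the left, with 8.5% shared sequence, while Hist2h2aa1, Hist2h2aa2 and Hist2h3c1 lie at 100% shared sequence.

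Control hair cells held more polyadenylated histone cluster RNA than control non-hair cells. Reads on the family made up 0.0468 ± 0.00224% of all gene reads in control hair cells and 0.0122 ± 0.00096% in control non-hair cells. Of the 29 members tested, 22 were higher in hair cells and 0 were lower (limma, unadjusted p under 0.01 and fold change above 1.2), against 28.1% of all 16077 genes tested that were higher. The median log2 difference was 1.07 over the members and −0.12 over all genes tested. Of the 22, Hist1h1d, Hist1h1e, Hist1h2ac, Hist1h2be, Hist1h2bg, Hist1h2bq, Hist1h2br, Hist1h4h, Hist2h2ab and Hist2h3b had under 100 reads in the non-hair cell groups together. They passed the minimum only with hair cell reads, the side where they are higher. The counts and the median are therefore no estimate for the whole family. In bulk samples of this kind, fewer cells of a type and less RNA per cell cannot be told apart.

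Per kilobase of annotated exon, the most abundant member in control hair cells was Hist3h2ba, an H2B gene of the small chromosome 11 cluster, at 167 score units (less the offset) per kilobase. Hist2h2aa1, an H2A gene whose sequence is wholly shared, followed at 94.0, and Hist3h2a, Hist1h2bc and Hist1h1c lay close together at 44.3, 42.6 and 42.6. This order depends on the GENCODE M21 lengths, and the annotation behind the scores is not given in the sources used here. Hist3h2ba and Hist3h2a had mean scores of 103.7 and 96.1 in control hair cells, on 614 and 2146 bases of exon.

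Hist1h2bc, an H2B gene, had the largest log2 difference between the populations with the offset of 1, though with an offset of 0.1 Hist1h2ac (4.79) exceeded it (3.59). The replicates of HC control scored 54.9, 45.7 and 50.3, and those of NHC control 4.73, 6.34 and 4.15. The groups lay far apart, with a log2 difference of 3.33 ± 0.18 (SE; adjusted p = 1.99e-08, limma with Benjamini-Hochberg adjustment). Further H2B and H2A genes followed, with log2 differences of 2.46 ± 0.19 for Hist1h2bk, 2.42 ± 0.14 for Hist1h2ac and 2.29 ± 0.15 for Hist2h2aa1.

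Among the H4 genes, Hist1h4i was 2.32 ± 0.25 (SE) higher on the log2 scale, Hist1h4h 0.99 ± 0.17 and Hist4h4 0.83 ± 0.14. All 3 tested H3 genes were higher, Hist2h3c2 by 1.87 ± 0.28, Hist2h3c1 by 1.29 ± 0.29 and Hist2h3b by 0.69 ± 0.20 on the log2 scale, but Hist2h3b lost its call without HC control replicate 2 or 3 or NHC control replicate 2 or 3 (0.50–0.92 over all fits with 1 replicate left out). All 3 tested H1 genes were higher as well, by log2 differences of 1.59 for Hist1h1c, 1.49 for Hist1h1d and 1.07 for Hist1h1e. Hist3h2ba (1.95), Hist3h2a (1.81), Hist2h2ac (1.53), Hist2h2be (1.29), Hist2h2ab (1.15), Hist1h2be (0.85), Hist1h2bg (0.79) and the identical pair Hist1h2bq and Hist1h2br (0.63) completed the list of higher members.

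Members without a call in this comparison included those with the fewest reads. Hist1h4m had a log2 difference of −4.74e-05 and Hist1h2bj one of −0.06, both with 10 or fewer reads per control group. Hist2h2aa2, which cannot be separated from Hist2h2aa1, had 0.16 ± 0.32 (SE). The log2 differences of members with scores close to 1 are held down by the offset, since with an offset of 0.1 Hist1h1e was 1.84 in place of 1.07 higher in hair cells.

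Genes of DNA replication and division moved the opposite way between the populations. Of 34 such genes, 29 were lower in control hair cells, 2 were higher, and the median log2 difference was −2.25. Over all genes tested, 37.7% were lower. Of 11 tested genes of replication-independent histones and histone variants, 8 were lower in hair cells and 0 were higher. These included Cenpa (centromeric H3, −2.89), H2afy2 (a macroH2A, −1.77), H1f0 (the linker histone of non-dividing cells, −1.41), H1fx (−1.27) and H3f3b (one of the H3.3 genes, −0.74).

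Treated hair cells held more polyadenylated histone cluster RNA than control hair cells, and the classes differed. Reads on the family made up 0.0818 ± 0.00581% of gene reads after gentamicin against 0.0468 ± 0.00224% without it, with the 3 treated replicates (0.077%, 0.0801% and 0.0882%) all above the 3 controls (0.0464%, 0.0492% and 0.0448%). The summed score of the 6 H1 genes was 64.5, 96.8 and 53.8 in the control replicates and 242, 314 and 319 in the treated ones, a 4.07-fold higher mean. H3 was 2.67-fold higher (18.3 ± 4.3 against 48.8 ± 8.8) and H4 was 1.63-fold higher (17.7 ± 2.9 against 28.9 ± 4.5), in both cases without overlap between the replicates. H2A was 1.24-fold higher, also without overlap, while H2B gave a ratio of 1.02 (211 ± 8.7 against 215 ± 11.6) with overlapping replicates. As a share of all reads on the family, H1 went from 14.7 ± 3.9% to 36.9 ± 3.65% and H2B from 43.6 ± 1.84% to 27.4 ± 2.99%. In non-hair cells the H1 share went from 18.0 ± 3.64% to 27.3 ± 6.63% and the H2B share from 40.3 ± 2.12% to 30.5 ± 5.29%. There the summed scores of H1 (1.88-fold), H4 (1.47-fold) and H2B (0.891-fold) did not overlap between treated and control replicates, while those of H2A (1.17-fold) and H3 (1.29-fold) did. For H2B the gap was slight, with 45.19 as the highest treated and 45.21 as the lowest control sum. The treated H1 sums in non-hair cells were 30.65, 60.87 and 32.45, against 18.44 to 24.16 in the controls. Class sums are a description and carry no test.

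**Figure D2:**
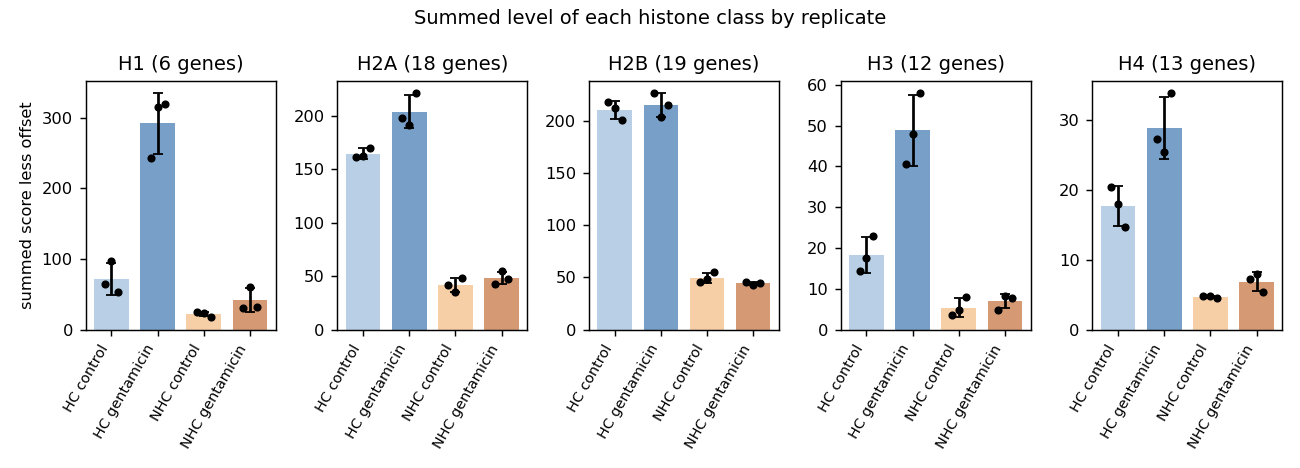
Summed normalized read score less the offset of 1 (vertical axes, each starting at 0 with its own range) for the 5 histone classes in the 4 groups. Bars are means, error bars SD and points the 3 replicates. H1 has a mean of 71.7 in HC control and 292 in HC gentamicin, while the H2B bars of hair cells are level at 211 and 215.

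Single abundant genes carried several of these sums. Hist1h1c gave most of the H1 sum. The log2 ratio of H1 in hair cells was 2.02, and it was 1.97 without Hist1h1e, whose rise was known. Without Hist1h1c it was 2.55, where Hist1h1e is the largest of the remaining members in treated hair cells. Without Hist1h4i the H4 ratio was 0.32 in place of 0.71, and without Hist3h2ba the H2B ratio was 0.29 in place of 0.03, each on the log2 scale.

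Of the 29 members tested, 13 met the criteria in treated hair cells, 12 of them higher and 1 lower. Over all genes tested, 27.5% met them, with 12.7% higher and 14.8% lower, and without Hist1h1e the members numbered 12. The median log2 fold change was 0.35 over the members tested and −0.09 over all genes tested. Of the 29, 7 reached the minimum of 100 reads only with the reads of treated hair cells (Hist1h2ae, Hist1h2ah, Hist1h2bj, Hist1h2bq, Hist1h2br, Hist1h4m and Hist1h4n), and Hist1h2bj, Hist1h4m and Hist1h4n are among the 12 that were higher. A member that passes in this way and is high in that group had to differ, so these counts are not an estimate for the whole family and the values of those 3 are given without a p. The offset of 1 also holds down the fold change of members with few reads. With an offset of 0.1 the log2 fold change was 3.05 for Hist1h4m and 2.90 for Hist1h2bj, against 3.03, 2.01 and 1.85 for Hist1h1e, Hist1h1c and Hist1h1d, so no order of size between the H1 genes and the core histone genes is drawn from these values.

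The linker histone genes Hist1h1c and Hist1h1d were higher, as was Hist1h1e, which is described without a test because its rise was known. H1 binds the DNA between nucleosomes and helps to compact chromatin. Hist1h1c, which encodes H1.2 and lies at chr13:23738808-23740367 on the plus strand, scored 60.5, 90.7 and 50.9 in the control replicates and 220, 283 and 282 in the treated replicates. Every treated replicate was above every control, and HC control replicate 2, the highest of the controls, also had the highest sum of mesenchymal markers (563 against 262 and 308). Its mRNA rose by 1.99 ± 0.26 (SE) on the log2 scale, a fold of 3.98 (adjusted p = 0.000322, limma), and the call held in all 6 fits with 1 hair cell replicate left out (1.81–2.23).

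Hist1h1d, which encodes H1.3, scored 3.29, 5.45 and 2.87 without drug and 6.73, 12.03 and 16.5 with it. The groups did not overlap, although the treated replicates were spread widely. It rose by 1.57 ± 0.34 (SE) on the log2 scale (adjusted p = 0.00558, limma).

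Hist1h1e, which encodes H1.4 and lies at chr13:23620629-23622558 on the minus strand, scored 3.53, 3.45 and 2.92 in the controls and 17.1, 21.5 and 23.2 after gentamicin. These correspond to 58.2, 57.4 and 41.7 reads against 390.3, 489.1 and 623.7 reads. The log2 fold change was 2.64 ± 0.14 (SE), and the ratio of the mean scores without the offset was 8.52. In non-hair cells it scored between 1.52 and 1.81 in all 6 replicates.

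The remaining H1 genes stayed under the minimum. Hist1h1t, the testis linker histone gene, which was singled out after its values were seen, had 3, 2 and 0 reads in control and 12, 14 and 13 reads in treated hair cells, and shares no 50-base run with another gene. Hist1h1a and Hist1h1b had 13 and 24 reads in all.

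The H1 genes Hist1h1c, Hist1h1d and Hist1h1e share a promoter layout. The 150 bases before each RefSeq start site (GRCm38.p6) are shown 5′ to 3′ on the gene's strand, from chr13:23738657-23738806 (plus) for Hist1h1c, chr13:23554882-23555031 (plus) for Hist1h1d and chr13:23622559-23622708 (minus) for Hist1h1e, with the H1 box AAACACA, the CCAAT box and the TATA motif TATAAA in capitals where either strand held them (in Hist1h1d the first capitals mark the TATA motif on the opposite strand). They are shown beside Hist1h4i, from chr13:22041363-22041512 (minus), an H4 gene that also rose.
Hist1h1c: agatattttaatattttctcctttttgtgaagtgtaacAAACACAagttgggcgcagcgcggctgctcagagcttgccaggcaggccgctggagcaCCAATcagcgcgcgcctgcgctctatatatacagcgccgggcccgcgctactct
Hist1h1d: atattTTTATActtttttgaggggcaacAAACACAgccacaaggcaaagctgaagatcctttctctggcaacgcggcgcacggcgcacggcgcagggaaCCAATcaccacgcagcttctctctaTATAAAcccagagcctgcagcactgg
Hist1h1e: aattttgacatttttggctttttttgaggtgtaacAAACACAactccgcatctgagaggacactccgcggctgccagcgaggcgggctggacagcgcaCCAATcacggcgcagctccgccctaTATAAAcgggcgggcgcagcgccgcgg
Hist1h4i: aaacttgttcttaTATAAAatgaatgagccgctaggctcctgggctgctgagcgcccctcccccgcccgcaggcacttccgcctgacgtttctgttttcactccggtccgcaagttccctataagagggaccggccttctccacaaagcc

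AAACACA, the H1 box, started 112, 122 and 115 bases before the start site of Hist1h1c, Hist1h1d and Hist1h1e, and CCAAT followed 54, 51 and 52 bases before it. In promoter windows of 300 bases (250 before and 50 after the start site), which RefSeq gave for 61 members, AAACACA was present in 5 of 6 H1 genes, 2 of 17 H2A, 2 of 16 H2B, 0 of 10 H3 and 0 of 12 H4 genes, and in 7.196% of all 32544 promoters, with both strands searched. Hist1h1b and Hist1h1t carry it too. CCAAT was present in every H1, H2A, H2B and H3 window and in 3 of the 12 H4 windows, against 37.4% of all promoters. TATAAA was present in 35 of the 61 members and in 13.6% of all promoters. These letter matches are a description of the windows and not evidence of bound factors.

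The core histone genes differed from gene to gene. Core histones form the octamer around which DNA is wrapped. Hist2h3c1, an H3 gene at chr3:96246685-96248509, scored 8.74, 12.2 and 15.5 in control hair cells and 27.5, 35.7 and 37.1 in treated ones. The treated replicates all lay above the controls, and the log2 fold change was 1.49 ± 0.29 (SE; adjusted p = 0.00288, limma). Its neighbour Hist2h3c2 rose by 1.22 ± 0.28 (SE; adjusted p = 0.00707), a call that was lost with an offset of 0.1. Hist2h3c1 shares all its 50-base runs with other annotated genes, and when the 3 genes Hist2h3b, Hist2h3c1 and Hist2h3c2 were summed the set rose by 1.42 ± 0.29 (SE; adjusted p = 0.00364, limma).

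The highest scoring H4 gene was Hist1h4i, with 10.6, 10.99 and 7.21 in the controls and 16.2, 16.2 and 23.1 after gentamicin. It rose by 0.95 ± 0.25 (SE; adjusted p = 0.0142, limma), but the call was lost without HC control replicate 3 (0.76), without HC gentamicin replicate 3 (0.78) or with an offset of 0.1. Hist1h4m had 4.4, 0 and 4.2 reads in the controls and 39.7, 36.2 and 45.9 in the treated replicates, with a log2 fold change of 1.21 ± 0.11 (SE). Treated hair cells supplied 81.5% of its reads, so it passed the minimum only through them. Its near copy Hist1h4n, which has 38.2 reads outside treated hair cells, had a log2 fold change of 0.67 ± 0.19 (SE), with the call lost without HC control replicate 3 (0.51), HC gentamicin replicate 1 (0.66) or HC gentamicin replicate 3 (0.53), and with an offset of 0.1.

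Among the 10 tested H2B genes, 3 met the criteria as higher and 1 as lower. Over all genes tested, 12.7% were higher and 14.8% lower. Hist2h2bb scored 1.69, 2.71 and 2.66 in the controls and 4.92, 6.48 and 4.32 in treated hair cells, with no overlap, and rose by 1.16 ± 0.24 (SE; adjusted p = 0.00362, limma). It lies wholly within an antisense gene, Gm20628, and the strand setting of the counting is not given in the sources used here, so reads of the pair cannot be told apart. Hist1h2bj, with 1.14, 1.08 and 1.01 in the controls against 2.10, 2.28 and 2.07 after treatment, had a log2 fold change of 1.00 ± 0.14 (SE) on 5.4 and 87.3 reads in all. Treated hair cells supplied 78.7% of its reads, and it too passed the minimum only through them. Hist1h2bc, the most abundant of the H2B genes that rose, went from 50.3 ± 4.6 to 79.97 ± 10.6, a log2 fold change of 0.67 ± 0.18 (SE; adjusted p = 0.0174, limma). Its call was lost without HC control replicate 2 (0.60), HC control replicate 3 (0.67) or HC gentamicin replicate 3 (0.56).

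Hist2h2be, which shares no 50-base run with another gene, was the member that fell. It scored 44.1, 41.0 and 47.8 in control hair cells and 32.7, 30.4 and 32.1 in treated ones, without overlap. Its mRNA fell by 0.48 ± 0.10 (SE) on the log2 scale (adjusted p = 0.00531, limma), and the call held with each hair cell replicate left out. Hist3h2ba, the H2B gene with the most reads, scored 106, 112 and 92.9 in the controls and 103, 79.8 and 70.5 after gentamicin, which overlapped, with a log2 fold change of −0.31 ± 0.15 (SE) and no call.

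Of the 8 tested H2A genes, 1 met the criteria as higher, where 27.5% of all genes tested met them and 12.7% were higher. Hist1h2ac scored 6.88, 5.33 and 5.19 without and 9.18, 7.33 and 8.87 with gentamicin, a log2 fold change of 0.55 ± 0.14 (SE; adjusted p = 0.0109, limma). The call was lost without HC control replicate 3 (0.48), with an offset of 0.1, and in a fit of the hair cell groups alone. The linked set of 11 H2A genes that holds Hist1h2ac had a log2 fold change of 0.64 ± 0.24 (SE) and no call. Hist3h2a, the H2A gene with the most reads, went from 96.1 ± 4.6 to 123 ± 8.7 without overlap (log2 fold change 0.35 ± 0.12, SE; adjusted p = 0.048, limma) and did not reach the unadjusted threshold of 0.01. It shares 31.5% of its runs with the overlapping gene Trim17. Hist2h2aa1 went from 56.1 ± 1.9 to 63.9 ± 6.9 and did not meet the criteria.

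**Figure D3:**
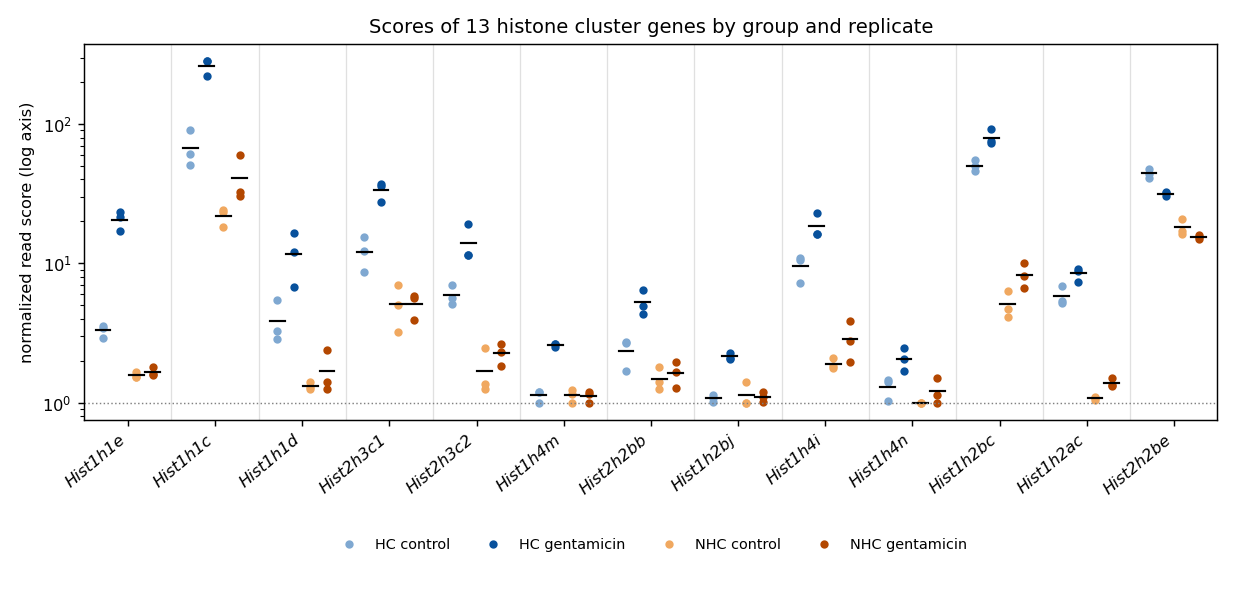
Normalized read score (vertical log axis, dotted line at 1, the score without reads) of the 13 members that met the criteria in hair cells, by group; points are replicates and short lines means. The 3 treated hair cell points lie above the 3 controls for the first 12 genes and below them for Hist2h2be. The genes were picked by the criteria from these same values, so this separation is no further support for a change. All points of Hist1h4m and Hist1h2bj outside treated hair cells lie between 1 and 1.41.

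Members under the minimum of 100 reads were not tested singly, but some enter the linked sets. The 9 Hist1h3 genes of chromosome 13, all under the minimum, summed to 1.69, 1.39 and 1.06 (score less the offset) in control and 2.37, 1.98 and 2.39 in treated hair cells, with a log2 fold change of 0.45 ± 0.16 (SE; adjusted p = 0.0487, limma) that did not meet the criteria. The set of 6 H4 genes that holds Hist1h4a, of which 5 are under the minimum and Hist1h4h is not, summed to 2.78, 1.71 and 1.95 in control and 3.21, 3.00 and 4.19 in treated hair cells and rose by 0.51 ± 0.15 (SE; adjusted p = 0.0265, limma).

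In non-hair cells, Hist1h1c and Hist1h2bc were the members that met the criteria after gentamicin. Reads on the family were 0.0122 ± 0.00096% of gene reads without and 0.0148 ± 0.00233% with the drug, the treated replicates being 0.0131%, 0.0175% and 0.0139%. These were 2 of 29 members, both higher, where 5.44% of all genes met them and 3.18% were higher. None had an adjusted p under 0.05 in limma, and 5 had an unadjusted p under 0.05.

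Hist1h1c scored 24.1, 23.5 and 18.3 in control and 30.5, 59.6 and 32.4 in treated non-hair cells. The groups did not overlap, but NHC gentamicin replicate 2 stood well above its group. The log2 fold change was 0.84 ± 0.26 (SE; adjusted p = 0.154, limma), and it was 0.53 without that replicate, which ended the call, as did leaving out NHC control replicate 1 (0.91), 2 (0.89) or 3 (0.71). In the same replicate the 34 genes of replication and division summed to 1672, against 1089 and 933 in the other treated replicates and 890–1081 in the controls. Its mesenchymal markers summed to 10070 against 8123 and 6644, its neuronal markers to 294 against 575 and 1024, and its supporting cell markers to 1284 against 2066 and 2977. Their part in the result was not tested.

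Hist1h2bc was the other, with 4.73, 6.34 and 4.15 in the controls and 8.12, 10.02 and 6.61 after gentamicin. The log2 fold change of 0.70 ± 0.18 (SE; adjusted p = 0.108, limma) was close to that in hair cells, and the difference between the populations was −0.04 ± 0.26 (SE). The call was lost without NHC control replicate 3 (0.57) or NHC gentamicin replicate 2 (0.55).

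The difference between the responses, that is, the log2 fold change in hair cells less that in non-hair cells, met the criteria for 7 members, or 6 without Hist1h1e. Over all genes tested 15.8% met them and 7.71% had the larger value in hair cells. Among the members, 6 had the larger value in hair cells (5 without Hist1h1e) and Hist4h4 the smaller. For Hist1h1e the difference was 2.54 ± 0.19 (SE), given without a test.

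Hist1h4m and Hist1h2bj are 2 of these, with differences of 1.23 ± 0.16 and 1.03 ± 0.19 (SE). They entered the test only through the reads of treated hair cells, the group where they are high, so their values are a description and no p is given. Hist2h3c1 differed by 1.43 ± 0.41 (SE; adjusted p = 0.0406, limma), with 1.17–1.73 over the fits with 1 replicate left out, and lost the call without HC control replicate 1, HC gentamicin replicate 2 or 3, NHC control replicate 2 or 3, or NHC gentamicin replicate 1. With its linked genes summed, the set differed by 1.16 ± 0.41 (SE) and did not meet the criteria.

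Hist1h1c differed by 1.15 ± 0.37 and Hist2h2bb by 1.04 ± 0.33 (SE; adjusted p = 0.0617 and 0.062, limma). Hist1h1c (0.97–1.46 with 1 replicate left out) kept its call only without HC control replicate 2, HC gentamicin replicate 1, NHC control replicate 3 or NHC gentamicin replicate 2. Hist2h2bb (0.82–1.18) lost its call without HC control replicate 1, HC gentamicin replicate 1 or 2, NHC control replicate 2 or 3, or NHC gentamicin replicate 1 or 2. Hist1h1d had a difference of 1.28 ± 0.48 (SE) that did not meet the criteria.

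Hist4h4, the solitary H4 gene at chr6:136801553-136804415, went opposite ways. Hair cells scored 7.91, 6.62 and 6.99 without drug and 6.37, 5.05 and 5.03 with it. Non-hair cells scored 4.39, 4.03 and 3.66 without and 5.46, 5.15 and 4.37 with it, so that only the hair cell groups did not overlap. Neither response met the criteria (−0.39 ± 0.14 and 0.31 ± 0.14, SE). Their difference was −0.70 ± 0.20 (SE; adjusted p = 0.0428, limma), with −0.81 to −0.63 over the fits with 1 replicate left out, and the call was lost without HC control replicate 1, HC gentamicin replicate 2 or 3, NHC control replicate 2 or 3, or NHC gentamicin replicate 1 or 2.

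**Figure D4:**
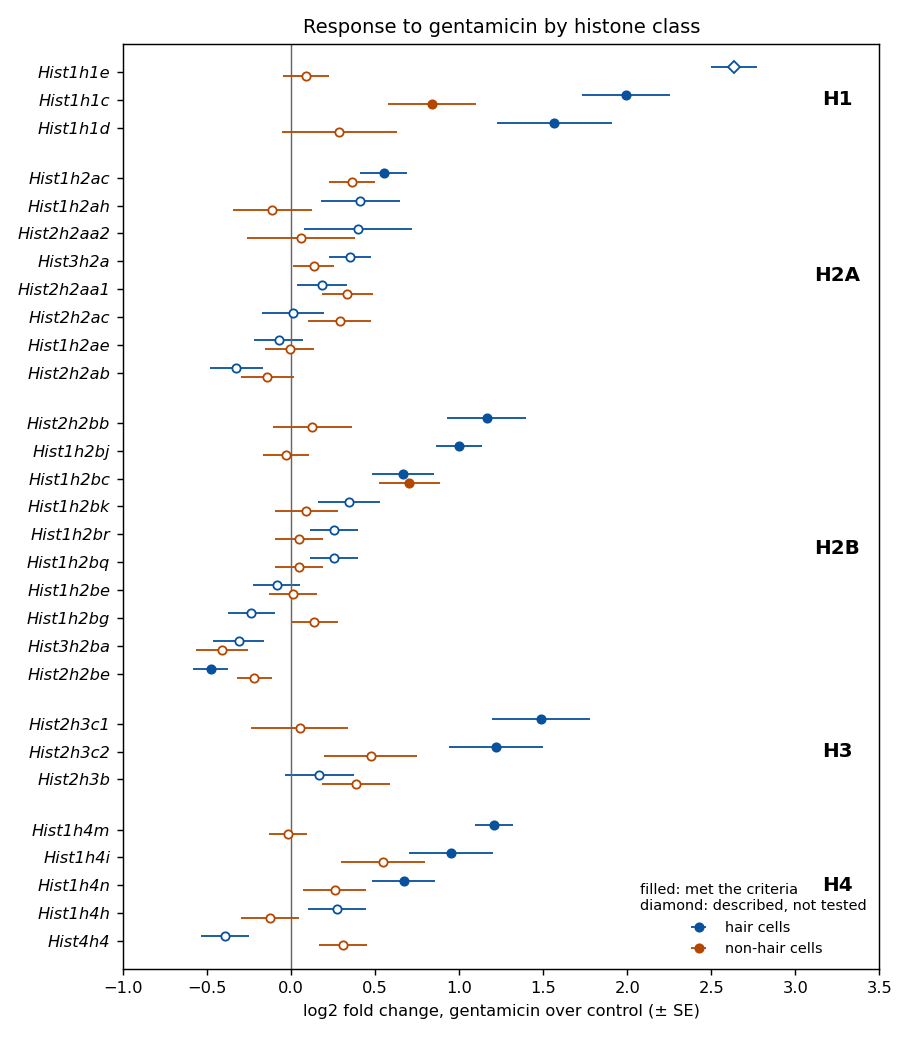
Log2 fold change of gentamicin over control (horizontal axis, ± SE) for the 29 tested members by class, in hair cells (blue) and non-hair cells (orange). Filled circles met the criteria, and the open diamond is Hist1h1e in hair cells, described without a test. With the offset of 1 used here, the H1 genes lie furthest right in hair cells at 1.57 to 2.64, whereas most H2A and H2B genes lie within 0.5 of 0 in both populations.

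Genes that make or handle histone mRNA were looked at beside the family. Of 26 tested factors of histone mRNA 3′ end processing and binding, 6 rose and 1 fell in treated hair cells, a share of 26.9% that is close to the 27.5% over all genes tested. Zfp473, a protein that binds the U7 snRNP at the cleavage site of histone pre-mRNA, rose by 1.35 ± 0.21 (SE; adjusted p = 0.000825, limma) from a mean score of 2.94 to 7.69. Lsm11, a subunit of the U7 snRNP, rose by 0.49 and Mtpap, the mitochondrial poly(A) polymerase, by 0.61. Cstf3, a subunit of the cleavage stimulation factor, rose by 0.49. Npat, the coactivator of histone gene transcription in S phase, fell by 0.38 on the log2 scale. The response of Zfp473 and Lsm11 also differed between the populations, by 1.64 ± 0.30 and 0.86 ± 0.15 (SE; adjusted p = 0.0069 and 0.0053, limma). In non-hair cells 4 of the factors rose and 1 fell (19.2%, against 5.44% of all genes tested), Lsm11 by a log2 fold change of −0.37.

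Of 11 replication-independent histone genes tested, 1 rose and 2 fell in treated hair cells, a share of 27.3% that is close to the 27.5% over all genes tested, and 0 met the criteria in non-hair cells. H3f3b rose by 0.56 ± 0.10 (SE), whereas H3f3a, which encodes the same H3.3 protein, fell by 0.66 ± 0.14 and H1f0 fell by 0.75 ± 0.13 (adjusted p = 0.00166, 0.00417 and 0.00168, limma). Among 21 histone chaperones, Hira, which deposits H3.3, rose by 0.43 ± 0.09 (SE) and Set by 0.34 ± 0.09 in hair cells, and no other member of that list met the criteria there (9.52% in all, under the share over all genes tested).

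Of the replication and division genes, 8.82% met the criteria in treated hair cells, against 27.5% of all genes tested. Hair cells gave them a summed score of 264–267 without and 264–275 with gentamicin. Of the 34 genes, Ccnb2 (1.12 ± 0.24, SE) and Aurka (0.60 ± 0.19), both of mitosis, rose and Cdk2 fell by 0.87 ± 0.23 on the log2 scale. In non-hair cells 2.94% of the 34 genes met the criteria, against 5.44% of all genes tested. This was Mcm6, a subunit of the replicative helicase, at 0.50 ± 0.16 (SE). Among the 12 hair cell markers, 0 met the criteria after gentamicin in hair cells, against 27.5% of all genes tested. The summed score of these markers there was 12980–13470 without and 10970–12150 with the drug.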

How the data were processed

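RNA of FACS-purified hair cells and non-hair cells was sequenced as 50 bp single-end reads. The authors trimmed the reads and aligned them to mm10 with TopHat2 in PartekFlow; the annotation and the handling of reads that match several genes are not given in the sources used here. The deposited value is a normalized score per gene and replicate. The methods speak of RPKM, but the deposited scores were not divided by gene length. Scores less 1, in units of the score that 1 read adds, lay within 0.1 of a whole number for 82.9–83.9% of low values, too few for a count test.

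Log2 scores of the 16077 genes with at least 100 recovered reads went into limma 3.58.1 (R 4.3.3) as 1 model over the 4 groups, with empirical Bayes moderation and a variance trend. Calls needed an unadjusted p under 0.01 together with a change of over 1.2-fold, the criteria of the study; adjusted p-values are Benjamini-Hochberg values over all genes tested. The study calls the replicates biological; which animals or cultures each came from is not given in the sources used here, so p-values measure the spread between these samples. The procedure was tested on simulated data in which the changed genes averaged at least 100 reads per replicate. It therefore does not show how changes in members with few reads are called. Members, lists and tests were chosen with earlier results of these data known. Named were the members called in a comparison, the member with most reads in each class, those nearest the read minimum, and up to 5 called genes per further list; others are said to be chosen after their values were seen. Sequences came from RefSeq (GRCm38.p6) and GENCODE M21, and were searched in Python 3.11.15 with numpy 2.4.6 and pandas 2.3.3.

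Alternatives were scaling by total reads or by the median of ratios, an offset of 0.1, a minimum of 1000 reads or none, no variance trend, the compared groups alone, adjusted p-values, a replicate block, and each replicate left out. Summing members that share sequence, and the H1 sum without Hist1h1e, were added after seeing the data.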

Additional observations from a re-analysis of the deposited data

Results flagged for a closer look

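In a test of the difference between the responses of hair cells and non-hair cells to gentamicin, 4 members had an adjusted p under 0.05 (limma). Hist1h1e was left out because its response was known beforehand. The log2 fold change was larger in hair cells by 1.43 for Hist2h3c1, by 1.23 for Hist1h4m and by 1.03 for Hist1h2bj. For Hist4h4 it was smaller in hair cells, with a difference of −0.70. Hist1h4m and Hist1h2bj had 27.6 and 23.6 reads in the other 3 groups together. They reached the minimum of 100 reads only through treated hair cells, where they are high, so their test is no support for a difference. Hist2h3c1 shares all its 50-base runs with other annotated genes, and its linked set did not meet the criteria. The call of Hist2h3c1 was lost with an offset of 0.1 and kept in 6 of 12 fits with 1 replicate left out. Hist4h4 kept its call in 5 of 12 such fits.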

How the results depend on the processing

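Of the class sums and counts of called members, 195 values under an alternative stayed close to the reported ones, 26 moved and 1 reversed. Without the member with most reads, the log2 ratios of the class sums in hair cells became 2.55 for H1, 0.29 for H2B and 0.32 for H4; in non-hair cells H3 became 1.12 and H2B turned from −0.17 to 0.068; between the control populations they became 2.38 for H1, 2.22 for H2A, 2.45 for H3 and 1.26 for H4. With a minimum of 1000 reads, which leaves 13 members, 8 were called in hair cells, 3 for the difference between populations and 13 between the control populations. An offset of 0.1 left 4 calls for the difference between populations. In non-hair cells 4 were called without a minimum, 1 without the variance trend, 1 with the compared groups alone and 0 by adjusted p. With 1 replicate left out the calls numbered 9–14 in hair cells, 1–3 in non-hair cells, 3–8 for the difference and 21–23 between the control populations. The non-hair cell count was 1 without NHC control replicate 1, 2 or 3 or NHC gentamicin replicate 2. The count for the difference was 3 or 4 without HC control replicate 1, HC gentamicin replicate 2 or 3, NHC control replicate 2 or 3, or NHC gentamicin replicate 1. Of the called values of single members, 633 kept their call, 66 lost it and 0 reversed. With a replicate block the calls were 14, 2, 8 and 23; the numbers are column positions only, and same-numbered replicates correlated at 0.04–0.05 in the hair cell groups, −0.23 to 0.68 in the non-hair cell groups and 0.20–0.32 across control populations. Scaling by the median of ratios moved the median gene between the control populations by 0.12 on the log2 scale and left 22 calls. Except where a value above shows it, the cause was not tested. Depth limits the 39 members under 100 reads, and shared sequence limits what can be said of single copies.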
